A study of Arabidopsis thaliana with 10 samples.

Results

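The genes described here are 9 Arabidopsis thaliana genes for helix-loop-helix (HLH) proteins that restrain growth: IBH1, IBL1, AIF1, AIF2, AIF3, AIF4, PAR1, PAR2 and UPB1. They were listed by their gene identifiers, 9 of 34047 genes in each deposited table. The set was chosen with earlier results of these data known, so the share of it that was called is not independent of those results. Transcripts of entire seedlings, 10 days old, were measured by poly(A) RNA sequencing in 5 genotypes of the Col-0 ecotype with 2 libraries each. The IBH1 overexpressor was homozygous for 35Spro:IBH1-GFP, the ibh1 mutant was homozygous for the insertion SALK 049177, the IBL1 overexpressor was homozygous for 35Spro:IBL1-GFP, the ibl1 mutant was homozygous for SALK 119457, and Col was the wild type. The 35S promoter is active in most plant tissues, and the GFP fusion puts transgene and native transcripts of the coding region into 1 value. The seedlings were left untreated, and how many independent transformed lines were used is not given in the labels.

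The authors deposited 1 FPKM value per genotype (fragments per kilobase of transcript, scaled to library size), so every level below is their value for a genotype and no spread between libraries can be shown. Depth per library is unknown. A gene was called, and is said to have risen or fallen against Col, where the q-value in the authors' deposited table was below 0.05. Fold changes are given on the log2 scale with the line on top, and ± gives a standard error derived from the deposited test statistic. All 9 genes had been tested in all 4 tables, so none was lost to a filter on low values. The labels call the 2 libraries biological duplicates, while the same text speaks of 3 biological replicates, so what separates the libraries is not fully clear. Shoot genes (RBCS1A, LHCB1.3, LHCB2.1) and 7 root genes were present in every genotype, and 3 seed storage genes were at or below 0.570 FPKM in all.

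HLH proteins pair through their helix-loop-helix region, and those that bind DNA do so through a basic region beside it. The 9 proteins lack a typical DNA-binding basic region; most are thought to act by pairing with DNA-binding bHLH proteins such as HBI1 or the phytochrome-interacting factors and keeping them off DNA. The PRE proteins, also HLH proteins, bind IBH1 and the AIF proteins and free their partners, and brassinosteroid signalling lowers IBH1 transcription. The PAR genes are induced by shade, and UPB1 is known from the root, where it sets the balance of reactive oxygen species between dividing and elongating cells.

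Upstream sequences of 4 genes are shown because their genes, PAR1, AIF1, AIF4 and IBL1, had the lowest fold changes of the family in the IBH1 overexpressor among those called there. Each is the 250 bases before the gene start annotated by RefSeq, which can differ from that of the authors' gene models, 5′ to 3′ on the gene's strand, from the RefSeq genome TAIR10.1, and capitals mark the letters CANNTG (the E-box, the core bound by bHLH proteins) on either strand.
PAR1 (chr2:17837619-17837868, minus strand): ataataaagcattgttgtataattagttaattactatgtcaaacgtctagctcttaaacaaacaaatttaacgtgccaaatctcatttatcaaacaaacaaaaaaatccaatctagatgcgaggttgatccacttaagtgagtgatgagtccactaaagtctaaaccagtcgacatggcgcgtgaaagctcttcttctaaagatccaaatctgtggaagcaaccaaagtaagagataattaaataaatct
AIF1 (chr3:1726901-1727150, plus strand): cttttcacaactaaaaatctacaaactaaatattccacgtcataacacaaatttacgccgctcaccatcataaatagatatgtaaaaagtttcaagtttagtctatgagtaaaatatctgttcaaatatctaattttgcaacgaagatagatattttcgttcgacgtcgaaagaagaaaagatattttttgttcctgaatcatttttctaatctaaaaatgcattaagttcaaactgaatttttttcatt
AIF4 (chr1:2988891-2989140, plus strand): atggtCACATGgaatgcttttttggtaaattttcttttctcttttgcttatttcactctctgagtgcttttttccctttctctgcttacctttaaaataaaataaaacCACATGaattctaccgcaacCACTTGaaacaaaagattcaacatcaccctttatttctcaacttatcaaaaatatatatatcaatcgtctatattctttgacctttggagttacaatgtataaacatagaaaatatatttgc
IBL1 (chr4:14872268-14872517, minus strand): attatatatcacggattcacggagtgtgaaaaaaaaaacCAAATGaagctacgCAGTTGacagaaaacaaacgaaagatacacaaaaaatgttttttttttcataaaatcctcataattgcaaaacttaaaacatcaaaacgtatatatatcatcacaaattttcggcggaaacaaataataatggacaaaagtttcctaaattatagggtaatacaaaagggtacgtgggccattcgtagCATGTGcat
PAR1 and AIF1 held no CANNTG in this window. AIF4 held CACATG with its first letter 245 and 142 bases before the start and CACTTG at 122 bases, and IBL1 held CAAATG at 211, CAGTTG at 197 and CATGTG at 9 bases. Over the family, 5 of 9 windows held CANNTG (IBL1, AIF3, AIF4, PAR2 and UPB1), against 55.3% of 27443 windows of protein-coding genes. None of the 9 held CACGTG (the G-box, itself one of the CANNTG sequences; 6.49% of windows), CGTGTG (5.37%) or CGTGCG (1.57%), both of these being letters of the brassinosteroid response element, searched on both strands. A match is only a description of these letters, and no match says only that they are not in this window.

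The level of each targeted gene checks the labels. IBH1 (AT2G43060, chromosome 2, 17909185 to 17910082, TAIR10) stood at 5148 FPKM in the IBH1 overexpressor, 6.91 FPKM in the ibh1 mutant, 20.3 FPKM in the IBL1 overexpressor and 17.4 FPKM in the ibl1 mutant, against 22.2 FPKM in Col. IBL1 (AT4G30410, chromosome 4, 14871109 to 14872176) stood at 1.84 FPKM in the IBH1 overexpressor, 7.27 FPKM in the ibh1 mutant, 201 FPKM in the IBL1 overexpressor and 1.87 FPKM in the ibl1 mutant, against 7.70 FPKM in Col. Each gene was thus highest in its own overexpressor and below Col in its own mutant, as labelled. On the FPKM scale, which allows for transcript length, IBH1 in its overexpressor reached 232 times its Col level and IBL1 in its overexpressor 26.1 times. The remaining IBH1 transcript in the ibh1 mutant was 31.2% of Col with a 95% interval of 20.0% to 48.6%, and the remaining IBL1 transcript in the ibl1 mutant was 24.3% of Col with an interval of 11.0% to 53.9%. How much of that transcript could be translated was not measured.

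IBL1 fell in the IBH1 overexpressor, and IBH1 was not called in the IBL1 overexpressor. IBL1 in the IBH1 overexpressor was at 23.9% of Col (95% interval 9.38% to 60.6%, q 0.0363 in the authors' deposited table), a level that did not differ by test from that of the ibl1 mutant (log2 difference -0.03, 95% interval -1.80 to 1.74, adjusted p 0.996). IBH1 in the IBL1 overexpressor was at 91.5% of Col (interval 66.0% to 127%). In the mutants the other gene was not called, with IBL1 at 94.4% of Col in the ibh1 mutant and IBH1 at 78.4% of Col in the ibl1 mutant. The difference in IBL1 level between the IBH1 overexpressor and the ibh1 mutant, a log2 value of -1.98 ± 0.79, missed the threshold (adjusted p 0.221). These adjusted p-values come from a test between lines that is set out with the other pairs of lines.

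**Figure D1:**
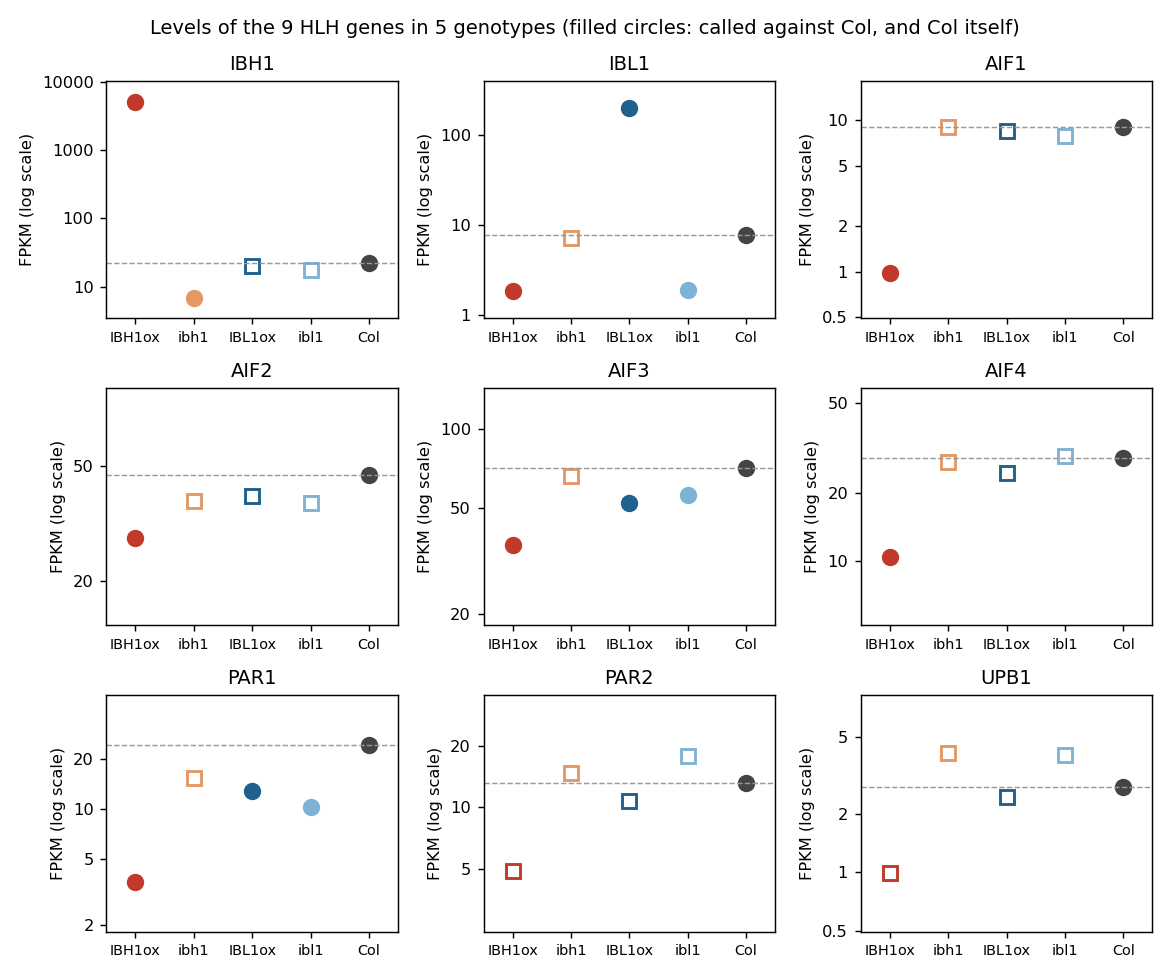
FPKM (log axis, a separate range in each panel) of the 9 genes in the IBH1 overexpressor (IBH1ox), the ibh1 mutant (ibh1), the IBL1 overexpressor (IBL1ox), the ibl1 mutant (ibl1) and Col, 1 deposited value per genotype. Filled circles are Col and the lines called against it, open squares are lines that were not called, and the dashed line is the Col level; for AIF1 the IBH1 overexpressor lies at 0.986 FPKM and the other 4 genotypes between 7.89 and 9.12 FPKM.

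Most of the family was lower in the IBH1 overexpressor. Of the 9 genes, 1 rose (IBH1), 6 fell (IBL1, AIF1, AIF2, AIF3, AIF4 and PAR1) and 2 were not called (PAR2 and UPB1). Among all 20694 genes tested in that table, 8.02% were called, of which 3.82% rose and 4.19% fell as shares of all genes tested. The 7 genes other than IBH1 and IBL1, of which 5 fell, had a median log2 fold change of -1.46, against 0.01 over all genes tested. Their FPKM summed to 85.4 in the IBH1 overexpressor and 196 in Col, 43.7% of Col. In these entire seedlings a smaller share of cells expressing a gene and less transcript per cell cannot be told apart.

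The 4 AIF genes encode HLH proteins that bind the PRE protein ATBS1, and plants with too much AIF1 are dwarfed. AIF1 (AT3G05800, chromosome 3, 1727306 to 1728296) stood at 0.986 FPKM in the IBH1 overexpressor, 9.02 FPKM in the ibh1 mutant, 8.49 FPKM in the IBL1 overexpressor and 7.89 FPKM in the ibl1 mutant, against 9.12 FPKM in Col. AIF1 was low in the IBH1 overexpressor alone, at 10.8% of Col with a 95% interval of 3.69% to 31.7% (q 0.00148 in the authors' deposited table). Its log2 fold change of -3.21 was the 43rd lowest of the 20216 tested genes above 0 FPKM in both groups. The 478 tested genes with a group at 0 were left out of that ranking. With 1 FPKM added to both values the log2 fold change of AIF1 was -2.35. AIF4 (AT1G09250, chromosome 1, 2989378 to 2990357) stood at 10.4 FPKM in the IBH1 overexpressor, 27.4 FPKM in the ibh1 mutant, 24.6 FPKM in the IBL1 overexpressor and 29.3 FPKM in the ibl1 mutant, against 28.6 FPKM in Col. Its fall was to 36.4% of Col (q 1.57e-05 in the authors' deposited table), and in the other 3 lines it lay between 86.2% and 102% of Col with no call.

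AIF3 (AT3G17100, chromosome 3, 5831194 to 5832419), the most abundant of the 9 in Col, was below Col in all 4 lines by value. It stood at 36.3 FPKM in the IBH1 overexpressor, 66.1 FPKM in the ibh1 mutant, 52.5 FPKM in the IBL1 overexpressor and 56.2 FPKM in the ibl1 mutant, against 71.2 FPKM in Col. It was called in 3 lines, at 51.0% of Col (IBH1 overexpressor), 73.7% (IBL1 overexpressor) and 79.0% (ibl1 mutant, q 0.025 in the authors' deposited table). The call in the ibl1 mutant was lost when fold changes were centred on that table's median of -0.07 (log2 -0.27, adjusted p 0.134). AIF2 (AT3G06590, chromosome 3, 2052693 to 2055414) had the smallest range, with 28.2 FPKM in the IBH1 overexpressor, 37.8 FPKM in the ibh1 mutant, 39.2 FPKM in the IBL1 overexpressor and 37.3 FPKM in the ibl1 mutant, against 46.4 FPKM in Col. All 4 lines were below Col for AIF2, and the IBH1 overexpressor was the one line called (60.9% of Col, log2 -0.71 ± 0.19, q 0.0039 in the authors' deposited table). The other 3 lines lay between 80.4% and 84.6% of Col.

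PAR1 and PAR2 are shade-induced genes whose proteins hold back elongation and are known to act in shade on the auxin-responsive genes SAUR15 and SAUR68. PAR1 (AT2G42870, chromosome 2, 17836416 to 17837250) stood at 3.62 FPKM in the IBH1 overexpressor, 15.3 FPKM in the ibh1 mutant, 12.7 FPKM in the IBL1 overexpressor and 10.2 FPKM in the ibl1 mutant, against 24.4 FPKM in Col. All 4 lines were below Col, and 3 were called: the IBH1 overexpressor at 14.9% of Col, the IBL1 overexpressor at 52.2% and the ibl1 mutant at 41.8%. In the ibh1 mutant PAR1 was at 62.9% of Col, with a 95% interval of 43.9% to 90.2% before adjustment for multiple tests and a q of 0.17 in the authors' deposited table. PAR1 fell further in the ibl1 mutant (log2 -1.26 ± 0.31) than in the IBL1 overexpressor (-0.94 ± 0.28) by value, but these lines did not differ by test (log2 difference of overexpressor over mutant 0.32, 95% interval -0.51 to 1.15, adjusted p 0.843). PAR2 (AT3G58850, chromosome 3, 21759352 to 21759942) stood at 4.89 FPKM in the IBH1 overexpressor, 14.7 FPKM in the ibh1 mutant, 10.8 FPKM in the IBL1 overexpressor and 18.0 FPKM in the ibl1 mutant, against 13.2 FPKM in Col. Both mutants were above Col and both overexpressors below it for PAR2, and no line was called. The lowest value, 37.0% of Col in the IBH1 overexpressor, had a q of 0.111 in the authors' deposited table.

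UPB1 (AT2G47270, chromosome 2, 19411560 to 19412151), a root gene, was the scarcest of the 9 in Col. It stood at 0.989 FPKM in the IBH1 overexpressor, 4.11 FPKM in the ibh1 mutant, 2.45 FPKM in the IBL1 overexpressor and 4.00 FPKM in the ibl1 mutant, against 2.75 FPKM in Col. As for PAR2, both mutants were above Col and both overexpressors below, with no call (q between 0.497 and 0.933 in the authors' deposited table). At its standard errors a change of UPB1 would have needed to be at least 9.73-fold in the IBH1 overexpressor, or 5.08-fold to 5.30-fold in the other lines, to be called. For AIF3 the same limit was 1.21-fold to 1.26-fold. The standard error of UPB1 varied with its level, from 1.14 in the IBH1 overexpressor to 0.766 in the ibh1 mutant on the log2 scale. These limits therefore hold at the observed values only. At these errors a change of less than several-fold in UPB1 would not have been called, and its lack of a call does not show a steady level. PAR2 needed 3.15-fold in the IBH1 overexpressor and was 2.70-fold lower.

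**Figure D2:**
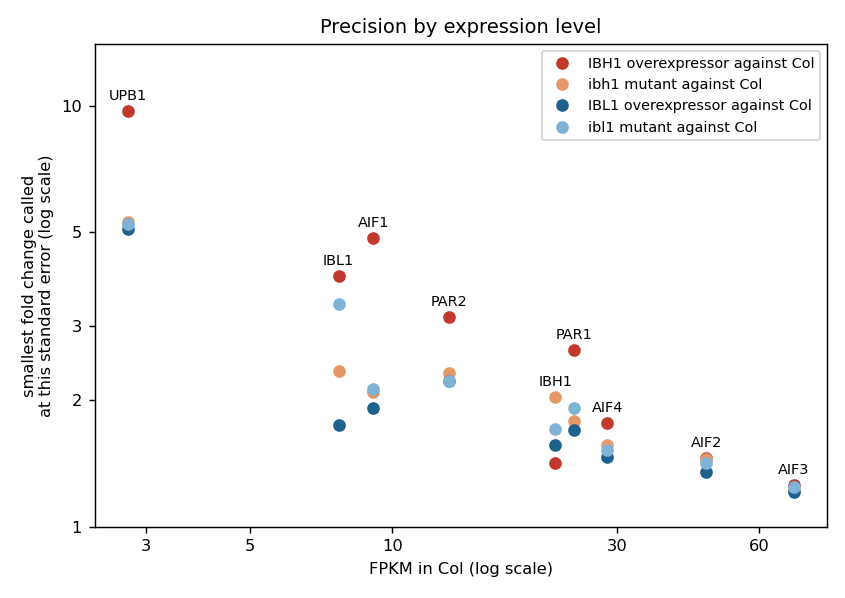
The smallest fold change that would have been called (log axis), at each gene's own standard error, against the FPKM of the gene in Col (log axis), for the 9 genes in the 4 lines against Col. UPB1, at 2.75 FPKM in Col, needed 5.08-fold to 9.73-fold and AIF3, at 71.2 FPKM, 1.21-fold to 1.26-fold.

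**Figure D3:**
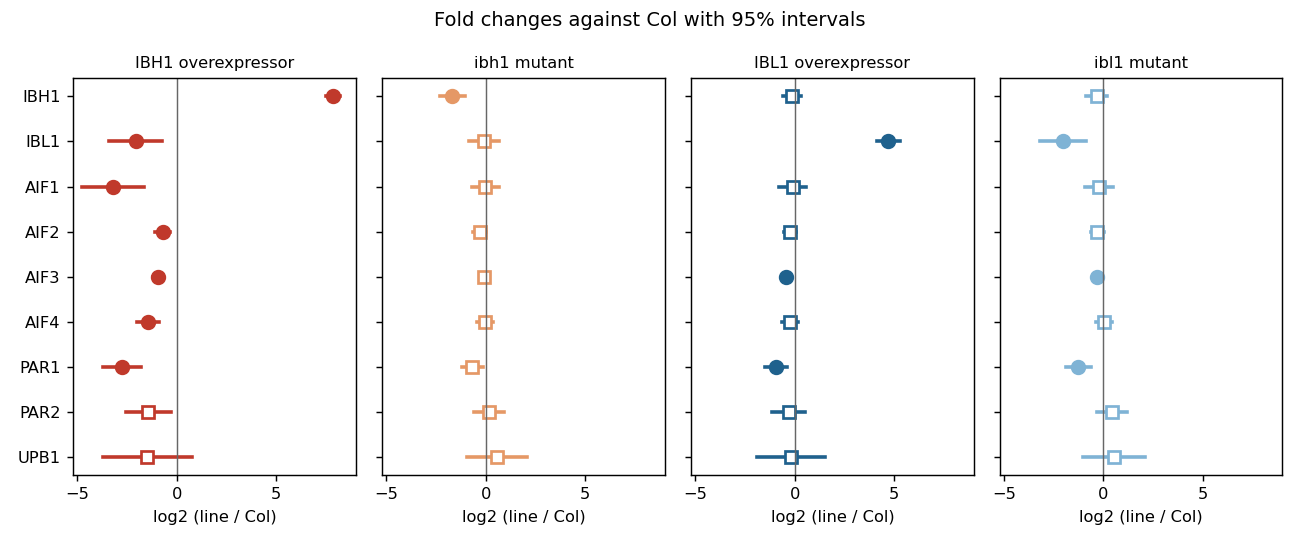
Log2 fold change of each line over Col for the 9 genes; points are the fold changes, bars their 95% intervals, filled circles are called and open squares are not. In the IBH1 overexpressor 8 of 9 points lie below 0, and in the ibh1 mutant 1 of 9 (IBH1) is called.

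In the ibh1 mutant the family gave a single call. IBH1 alone was called among the 9, where 3.37% of all genes tested were called (1.34% higher and 2.04% lower), and the 7 genes other than IBH1 and IBL1 ran from -0.67 (PAR1) to 0.58 (UPB1) on the log2 scale with a median of -0.06. In the IBL1 overexpressor 1 of the 9 rose (IBL1) and 2 fell (AIF3 and PAR1), while 13.9% of all genes tested were called, 10.3% higher and 3.58% lower. All 7 other genes lay below Col there, between -0.94 (PAR1) and -0.10 (AIF1), with a median of -0.24 against 0.13 over all genes tested. Centring that table on its median of 0.12 over genes at 1 FPKM or more left 3 members called, AIF3 at -0.56 and PAR1 at -1.06 among them. In the ibl1 mutant 3 of the 9 fell (IBL1, AIF3 and PAR1) and none rose, while 5.45% of all genes tested were called, 4.4% lower and 1.05% higher; the 7 genes had a median of -0.21 against -0.07 over all genes. The FPKM of the 7 genes summed to 174 for the ibh1 mutant, 151 for the IBL1 overexpressor and 163 for the ibl1 mutant, against 196 for Col. These 4 comparisons share the Col libraries, so they are not independent of each other.

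Because a call in one line and not in another does not show that the lines differ, each pair of lines was compared directly. The log2 difference of the fold changes was divided by the root of the sum of both squared standard errors, with a two-sided normal p and Benjamini-Hochberg adjustment over all genes tested in both tables. That standard error counts the error of Col although Col cancels, so the test is cautious if the derived standard errors hold. IBH1 and IBL1 are the genes altered in these lines, so their calls between lines follow from how the lines were made. In the IBH1 overexpressor against the ibh1 mutant, IBH1 was higher and AIF1, AIF3, AIF4 and PAR1 were lower, 5 of 9 called against 2.92% of all genes (1.3% higher, 1.62% lower). Of the 7 genes other than IBH1 and IBL1, 4 were called in this pair. AIF1 differed there by a log2 value of -3.19 ± 0.86 (adjusted p 0.0107) and AIF3 by -0.86 ± 0.15 (adjusted p 1.32e-06). Against the IBL1 overexpressor, the IBH1 overexpressor was lower for IBL1, AIF1, AIF3, AIF4 and PAR1 and higher for IBH1, 6 of 9 called against 5.48% of all genes (1.39% higher, 4.08% lower). Without IBH1 and IBL1, 4 of the 7 other genes were called in this pair. AIF4 differed there by -1.24 ± 0.35 (adjusted p 0.0107), PAR1 by -1.81 ± 0.56 (adjusted p 0.0276) and AIF3 by -0.53 ± 0.15 (adjusted p 0.0129). The AIF3 call was lost after centring both tables on their medians (-0.42, adjusted p 0.0889).

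Against the ibl1 mutant, the IBH1 overexpressor was lower for AIF1 (-3.00 ± 0.87, adjusted p 0.0221), AIF3 (-0.63 ± 0.15, adjusted p 0.00305) and AIF4 (-1.49 ± 0.35, adjusted p 0.00141) and higher for IBH1, 4 of 9 called against 3.27% of all genes (1.94% higher, 1.32% lower). Without IBH1 and IBL1, 3 of the 7 other genes were called in this pair. PAR1 missed the threshold in that pair (-1.49 ± 0.58, adjusted p 0.181). AIF1 and AIF4, which were called against Col in no other line, set the IBH1 overexpressor apart from each of the other 3 lines by test, whereas AIF2 did not: its differences from them ran from -0.47 to -0.40, with adjusted p between 0.369 and 0.69. Among the other 3 pairs of lines, no member but IBH1 and IBL1 was called at this standard error, so 0 of the 7 other genes were called in each. The ibh1 mutant was lower than the IBL1 overexpressor for both (2 of 9, against 2.54% of all genes, 0.642% higher and 1.9% lower), and the IBL1 overexpressor was higher than the ibl1 mutant for IBL1 (1 of 9, against 5.16% of all genes, 4.44% higher and 0.722% lower). The ibh1 mutant and the ibl1 mutant differed in none of the 9 genes by this test (0.466% of all genes called, 0.311% higher and 0.155% lower), and IBH1 was at 6.91 FPKM in the ibh1 mutant against 17.4 FPKM in the ibl1 mutant (adjusted p 0.18; unadjusted p 0.00137).

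**Figure D4:**
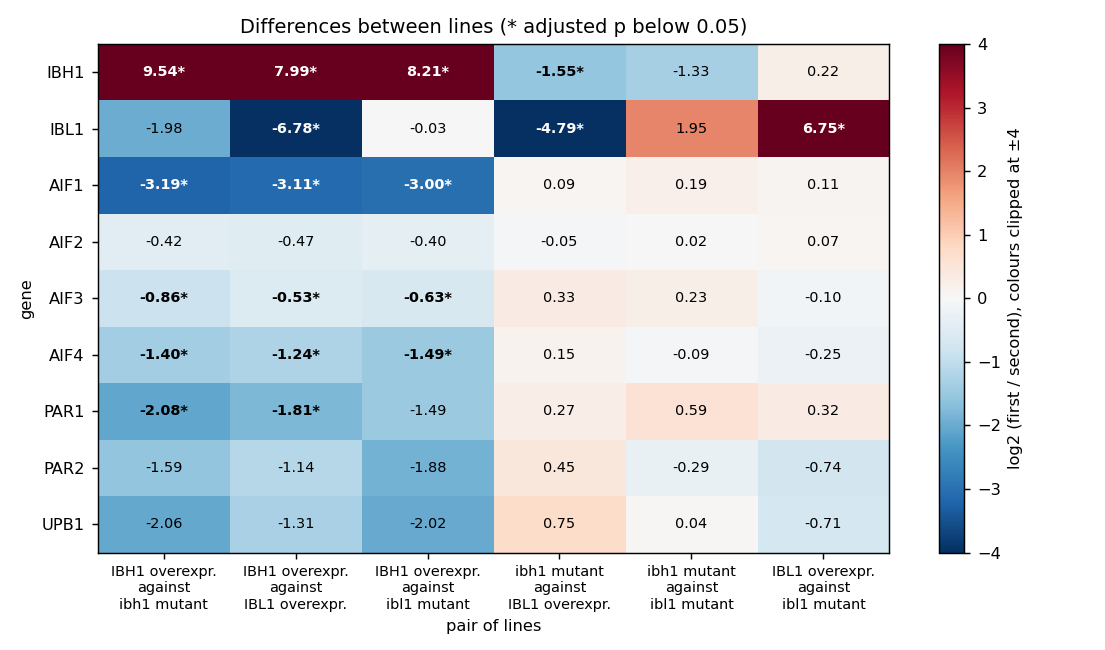
Log2 difference between lines (first over second named) for the 9 genes in the 6 pairs of lines; red is higher and blue lower in the first line, colours stop at 4 in either direction, and an asterisk marks an adjusted p below 0.05. AIF1, AIF3 and AIF4 are marked in all 3 pairs that hold the IBH1 overexpressor, and outside IBH1 and IBL1 no gene is marked in the other 3 pairs.

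Put in order of level, each gene spanned 5 genotypes and 4 steps between neighbours, and 5 of the 36 steps were called. Steps next to Col were judged by the authors' q-value and steps between lines by the test between lines. The order itself came from the same values. Called were the steps from the IBH1 overexpressor down to Col for IBH1 and from the IBL1 overexpressor down to Col for IBL1. Both follow from how the lines were made. The others were the last step down to the IBH1 overexpressor for AIF1, AIF3 and AIF4. By value the IBH1 overexpressor was the lowest genotype for all genes but IBH1, by a called step for AIF1, AIF3 and AIF4 alone. For IBL1 it was at 1.84 FPKM, against 1.87 FPKM in the ibl1 mutant. Col was the highest for AIF1, AIF2, AIF3 and PAR1, the ibl1 mutant for AIF4 and PAR2, and the ibh1 mutant for UPB1, but the neighbours of these top values did not differ by test. From lowest to highest genotype AIF1 spanned 9.25-fold, PAR1 6.73-fold, UPB1 4.16-fold, PAR2 3.67-fold, AIF4 2.81-fold, AIF3 1.96-fold and AIF2 1.64-fold.

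Of the 10 genes nearest to IBH1 in start position, 5 on each side, 8 were tested. None was called in the ibh1 mutant, and IPMI2 (AT2G43100, 104 FPKM in the line and 142 FPKM in Col) alone fell in the IBH1 overexpressor. AT2G43030 fell in the IBL1 overexpressor, and AT2G43030 and AT2G43090 fell in the ibl1 mutant, by at most 0.37 on the log2 scale. Of the 10 nearest to IBL1, 8 were tested. None was called in the ibl1 mutant, and GAE1 (AT4G30440, 103 FPKM in the line and 74.4 FPKM in Col) alone rose in the IBL1 overexpressor. PAR1 ends 71935 bases before IBH1 starts on chromosome 2 and PIF4 ends 20135 bases before it, outside that set of 10. No other gene of the files overlaps any of the 9. In the RefSeq transcripts the longest exact stretch shared by any pair of the 9 was 29 bases (IBH1 and AIF2), then 26 bases (PAR1 and PAR2).

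Known partners and targets of these HLH proteins were looked at as lists. Among 10 genes of the growth-promoting HBI1/BEE/CIB group, 9 were tested in each line. In the IBH1 overexpressor BEE2 fell (26.5 FPKM, against 42.6 FPKM in Col) and CIB4 rose (17.9 FPKM, against 10.9 FPKM in Col). In the IBL1 overexpressor HBI1 and BEE2 (21.8 FPKM) fell, and none was called in either mutant. The list's median log2 fold change was -0.03 in the IBH1 overexpressor and -0.23 in the IBL1 overexpressor, against 0.01 and 0.13 over all genes tested. HBI1, the partner for which IBH1 is best known, stood at 48.0 FPKM in the IBH1 overexpressor, 47.3 FPKM in the ibh1 mutant, 26.9 FPKM in the IBL1 overexpressor and 46.7 FPKM in the ibl1 mutant, against 48.9 FPKM in Col. The IBL1 overexpressor was the one line in which HBI1 was called (log2 -0.86 ± 0.13), and it was lower than each of the other 3 lines by the test between lines (adjusted p 0.000153 to 0.000264), a test added for the lists after their values were seen.

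None of the 6 PRE-type genes (PRE1, BNQ2, PRE3, BNQ3, PRE5 and PRE6) was called in any line, where 6 were tested in each overexpressor and 5 in each mutant. Their median log2 fold changes were 0.27 (IBH1 overexpressor), 0.08 (ibh1 mutant), -0.11 (IBL1 overexpressor) and -0.56 (ibl1 mutant). Of the 5 phytochrome-interacting factors, bHLH proteins that light controls through the phytochromes, PIF4 and PIF5 fell in all 4 lines and PIF1 in the IBL1 overexpressor as well. The calls of PIF5 in the IBH1 overexpressor (q 0.0492 in the authors' deposited table) and of PIF1 (q 0.0499) only just passed the threshold of 0.05. PIF5 stood between 37.7 FPKM (ibl1 mutant) and 48.5 FPKM (IBH1 overexpressor) in the lines, against 56.2 FPKM in Col. PIF4, 9.74 FPKM in the IBH1 overexpressor, 16.5 FPKM in the ibh1 mutant, 5.53 FPKM in the IBL1 overexpressor and 10.6 FPKM in the ibl1 mutant, against 33.2 FPKM in Col, was below Col in every line, as PAR1 was by value. Of the 4 upstream brassinosteroid genes, the receptor gene BRI1 and the signalling genes BIN2 and BES1 fell in the IBH1 overexpressor, BES1 fell in the IBL1 overexpressor, and none was called in either mutant. In the IBH1 overexpressor BRI1 was at 27.6 FPKM, against 38.3 FPKM in Col. BES1, a transcription factor that brassinosteroids activate, was at 92.7 FPKM there, against 114 FPKM in Col. BIN2, a kinase that holds the pathway back, was at 79.9 FPKM there, against 99.4 FPKM in Col.

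Of 5 genes linked to PAR and UPB1 action, SAUR15 and SAUR68 were called in no line. The peroxidase gene AT5G17820 rose in the ibh1 mutant (81.4 FPKM, against 61.5 FPKM in Col) and in the IBL1 overexpressor (79.1 FPKM, a call lost on centring, adjusted p 0.150), and the peroxidase gene AT4G11290 rose in the IBL1 overexpressor (36.0 FPKM, against 22.6 FPKM in Col). The peroxidase gene AT4G16270 was not called. UPB1 lay above Col in the ibh1 mutant and below Col in the IBL1 line, without a call in either. Root markers moved in those same lines: of 7, CASP1 and PHO1 rose in the ibh1 mutant, CASP1, PHO1 and WER rose in the IBL1 overexpressor, SHR fell in the IBH1 overexpressor and none was called in the ibl1 mutant. On centring, PHO1 and WER lost their calls in the IBL1 overexpressor (adjusted p 0.232 and 0.0767). Their summed level was 117 FPKM (IBH1 overexpressor), 171 FPKM (ibh1 mutant), 173 FPKM (IBL1 overexpressor) and 132 FPKM (ibl1 mutant), against 131 FPKM in Col, with no marker at 0. The 3 shoot markers summed to 30400 FPKM (IBH1 overexpressor), 30640 FPKM (ibh1 mutant), 26572 FPKM (IBL1 overexpressor) and 29002 FPKM (ibl1 mutant), against 40658 FPKM in Col. LHCB2.1 fell in all 4 lines and LHCB1.3 in all but the ibh1 mutant, the LHCB1.3 call in the ibl1 mutant being lost on centring (adjusted p 0.0502). The part of these shifts in the family's values was not tested.

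**Figure D5:**
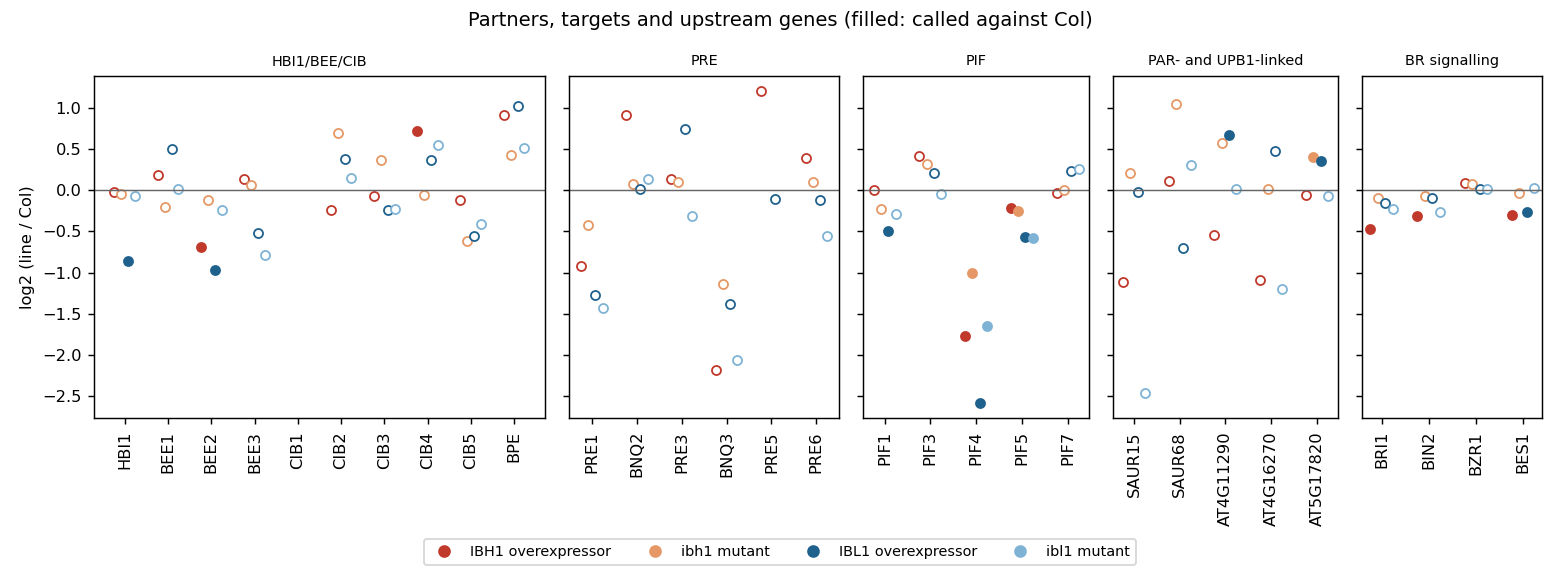
Log2 fold change over Col (y axis) of partner, target and upstream genes in each overexpressor and mutant, grouped by list; filled points are called. PIF4 lies below 0 in all 4 lines and HBI1 is called in the IBL1 overexpressor alone; CIB1 was tested in no line and has no point.

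For each of the 5 AIF and PAR genes called against Col in at least 1 line, the 3 genes with the nearest pattern were found among 20071 genes at 1 FPKM or more in Col, by the Euclidean distance over the 4 values of log2((line + 1)/(Col + 1)). AIF1 was nearest to RTFL6 (distance 0.21; listed at 0 in the IBH1 overexpressor), CYP97B3 (0.30) and AT3G12710 (0.38). CYP97B3, a cytochrome P450 gene, stood at 7.71 FPKM in the IBH1 overexpressor, 47.3 FPKM in the ibh1 mutant, 42.5 FPKM in the IBL1 overexpressor and 48.8 FPKM in the ibl1 mutant, against 50.1 FPKM in Col, so its low value was in the IBH1 overexpressor as for AIF1. AIF4 was nearest to RGF3 (0.19), which encodes a secreted root growth peptide, MYB47 (0.19) and RL4 (0.21). MYB47 was scarce, at 0.110 FPKM in the IBH1 overexpressor and 1.71 FPKM in Col, so the added 1 FPKM shrinks its ratio. PAR1 was nearest to AT5G62150 (0.32), AT1G26290 (0.47) and AT2G44340 (0.55). In the IBH1 overexpressor AT1G26290 was at 0.245 FPKM (5.54 FPKM in Col) and AT2G44340 at 0.0434 FPKM (4.59 FPKM in Col). The added 1 FPKM shrinks these ratios too. AT5G62150, annotated as a LysM domain protein, stood at 1.74 FPKM in the IBH1 overexpressor, 6.71 FPKM in the ibh1 mutant, 6.68 FPKM in the IBL1 overexpressor and 5.46 FPKM in the ibl1 mutant, against 13.8 FPKM in Col. AIF3 was nearest to 4CL8 (0.12), PAP24 (0.13) and KCS16 (0.13). The first 2 were scarce, 4CL8 at 0.0568 FPKM in the IBH1 overexpressor and 1.01 FPKM in Col, and PAP24 at 0.179 FPKM in the IBH1 overexpressor and 1.12 FPKM in Col, so the added 1 FPKM shrinks their ratios, and none of the 3 was named with a pseudocount of 0.1. AIF2 was nearest to FLA8 (0.07), AT3G61160 (0.08) and GRP5 (0.10). The 4 values share Col, and with a pseudocount of 0.1 only 3 of the 15 (FLA8, RL4 and AT5G62150) were named again for the same gene.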

How the data were processed

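RNA of 10 libraries (5 genotypes, 2 each) was sequenced. The genotype in each library's title gives its group, and the number after it gives the replicate. Per the submitters' processing notes, TAIR10 was the build and CASAVA 1.8.2, TopHat 1.4.1 and Cuffdiff were the tools; no Cuffdiff version, gene models or strand use are named there. Each of the 4 tables the authors deposited has an FPKM value per genotype, a log2 fold change, a statistic, a p-value and a q-value per gene, per the file headers. Its log2 value has Col on top. The fold changes given here, and the direction of each call, were computed from the deposited FPKM values with the line on top. Turned to the same side, the deposited log2 value differed from that ratio by up to 3.49 for a gene (ibh1 mutant). A normal two-sided p computed from the deposited statistic matched the authors' p-value to within 2.81e-06. The standard error was taken as the log2 fold change over the statistic. That the statistic is such a ratio was assumed, and the match of p-values does not check it. Where a gene is listed at 0 no fold change was used, except as a ratio with the pseudocount in the search by pattern. Per library values were not analysed here, so no depth, interval of counts or count test is given.

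Differences between lines were tested as described with the results, on functions tested on simulated data. Those data were drawn with the same standard errors, so they do not check the standard errors themselves. Sequences came from RefSeq TAIR10.1, where 31280 of 31282 matched nuclear genes overlap their position in the files; upstream windows were counted from its gene starts. By rule, the genes named are the 9 members, called genes of the lists (uncalled list genes are also named, beyond that rule and after their values were seen), called genes among those flanking IBH1 and IBL1, and the 3 nearest by pattern; members and lists were chosen with earlier results of these data known. BNQ2 and BNQ3 are the annotation's names for genes also known as PRE genes. Alternatives were centring, a threshold of 0.01, a filter at 1 FPKM, pooled adjustment, pseudocounts of 0.1 and 1, a smaller standard error between lines (the larger of the 2 lines' own, without adding the other) and a window of 100 bases. Protein sequences were not used here. Work used Python 3.11.15, pandas 2.3.3, scipy 1.17.1 and biopython 1.88.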

Additional observations from a re-analysis of the deposited data

How the results depend on the processing

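No paired analysis was possible because the tables hold 1 value per genotype and none per library; for the same reason no library was left out. Of the counts of members called, those of the IBH1 overexpressor, the ibh1 mutant and the IBL1 overexpressor against Col stayed within 1.5 times under every alternative run. Single calls were lost even so. At a threshold of 0.01, IBL1 in the IBH1 overexpressor (q 0.0363 in the authors' deposited table) and PAR1 in the IBL1 overexpressor (q 0.0102) were not called. AIF1, at 0.986 FPKM in the IBH1 overexpressor, was left untested there and in the pairs with that line by the filter at 1 FPKM. In the ibl1 mutant a threshold of 0.01 left 1 call (PAR1) in place of 3. In the IBH1 overexpressor against the IBL1 overexpressor that threshold left 3 of 6. In the ibh1 mutant against the ibl1 mutant, where 0 of 9 were called, a smaller and less cautious error, the larger of the 2 lines' own standard errors in place of the root of their summed squares, gave 2 (IBH1 and IBL1), and adjustment over the 6 pairs together gave 1 (IBH1). That smaller error also brought PAR1 and PAR2 past the threshold in the IBH1 overexpressor against the ibl1 mutant (adjusted p 0.0279 and 0.0173), and AIF3 in the ibh1 mutant against the IBL1 overexpressor (adjusted p 0.02). No called value reversed. The share of all genes called under each alternative is not given here, so these counts of members called have no background beside them. On centring, a test on the lists chosen after seeing the data, CIB4 was called higher in the ibl1 mutant (adjusted p 0.0374) and BRI1 lower in the IBL1 overexpressor (adjusted p 0.0241). The number of order steps called, 5, was 4 after centring, an alternative chosen after seeing the data. A window of 100 bases left CANNTG in 2 of 9 genes in place of 5, against 26.8% of all windows. Protein identities between members were not run. The smallest fold that could be called at a gene's own standard error was largest for UPB1 in each line, and depth per library is unknown.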
